A study of Mus musculus with 8 samples.

Results

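The 10 genes described here encode the last kinases of the Hippo pathway, its co-activators and TEAD transcription factors, and products of widely used target genes. They were taken by name from the GENCODE annotation of the mouse build mm9, which holds 37273 genes on the autosomes, X and Y, of which 22367 are protein coding. All 10 names matched 1 protein-coding gene each. A short non-coding record that is also named Tead1 and lies at the end of that gene was left out. The genes are Yap1 and Wwtr1 (which encodes TAZ), Tead1, Tead2, Tead3 and Tead4, Lats1 and Lats2, and Ctgf and Cyr61.

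In the Hippo pathway a kinase cascade ends in LATS1 and LATS2, which phosphorylate the co-activators YAP and TAZ and keep them out of the nucleus. YAP and TAZ do not bind DNA themselves and act through the TEAD transcription factors. Ctgf and Cyr61, which encode secreted matricellular proteins, are widely used as target genes of YAP and TEAD. In the heart the pathway is known for restraining the growth of cardiomyocytes and for a part in epicardial development and in repair after infarction. BRG1 is an ATPase of the SWI/SNF chromatin-remodelling complex, and the comparison asks where regions called from BRG1 ChIP-seq lie at these genes.

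BRG1 was examined by ChIP-seq in whole hearts of adult mice after myocardial infarction (MI). MI was induced by permanently tying off the left anterior descending artery. The labels give the strain as C57BL/6 and the age as 10 to 12 weeks. The methods give C57BL/6J for the primed wild-type mice and an older age range for mice with infarction. Mice were primed for 1 week with daily intraperitoneal injections of PBS or of thymosin β4 (Tβ4, an actin-binding peptide, 12 mg per kg), were injected again on days 0 and 2 after surgery, and hearts were taken on day 4. Each of these groups gave 2 BRG1 ChIP libraries and 2 input libraries, 8 in all, and the number of hearts behind a library is not stated. The data used here are 1 list of BRG1 regions, called by the authors against input in hearts of the Tβ4-primed group, and the PBS-primed group was not analysed here. The list gives the position of each region, with no height, fold enrichment, p-value or value per replicate, so that the depth and the spread between duplicates are unknown and no difference below was tested. Whole hearts mix cell types, and the list carries no expression value with which the tissue could be checked.

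The list held 524614 regions with a median length of 600 bp, which covered 25.8% of the bases of the autosomes, X and Y. Over the 10 genes and 5 kb on either side of each, 156 regions were counted, when at least 1 bp of overlap was required. Their median length was 825 bp, with a range of 210 to 8250 bp. Regions of at least 3000 bp made up 13.5% of them, 21 regions in number, and 11.3% of all regions of the list. Introns held 116 of the 156 regions, while 20 regions touched a coding exon, 6 touched only a non-coding part of an exon, 8 lay in the upstream flanks and 6 in the downstream flanks.

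Every one of the 10 genes had at least 1 region in the gene body or its 5 kb flanks (the window). The same was true of 95.1% of all genes and 97.5% of protein-coding genes. The covered share, that is the percentage of bases of the window inside regions, separated the genes more clearly. It ran from 7.10% at Tead2 to 49.9% at Wwtr1, with a median of 20.2%, against a median of 24.0% over all genes and 25.2% over protein-coding genes. For each gene the 200 genes closest in length served for comparison, and its rank among them is given as a percentile. The median percentile of the 10 genes was 33.3. Wwtr1 and Tead3 ranked above 75, Yap1 between 50 and 75, Lats2, Ctgf and Cyr61 between 25 and 50, and the other 4 genes below 25.

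**Figure D1:**
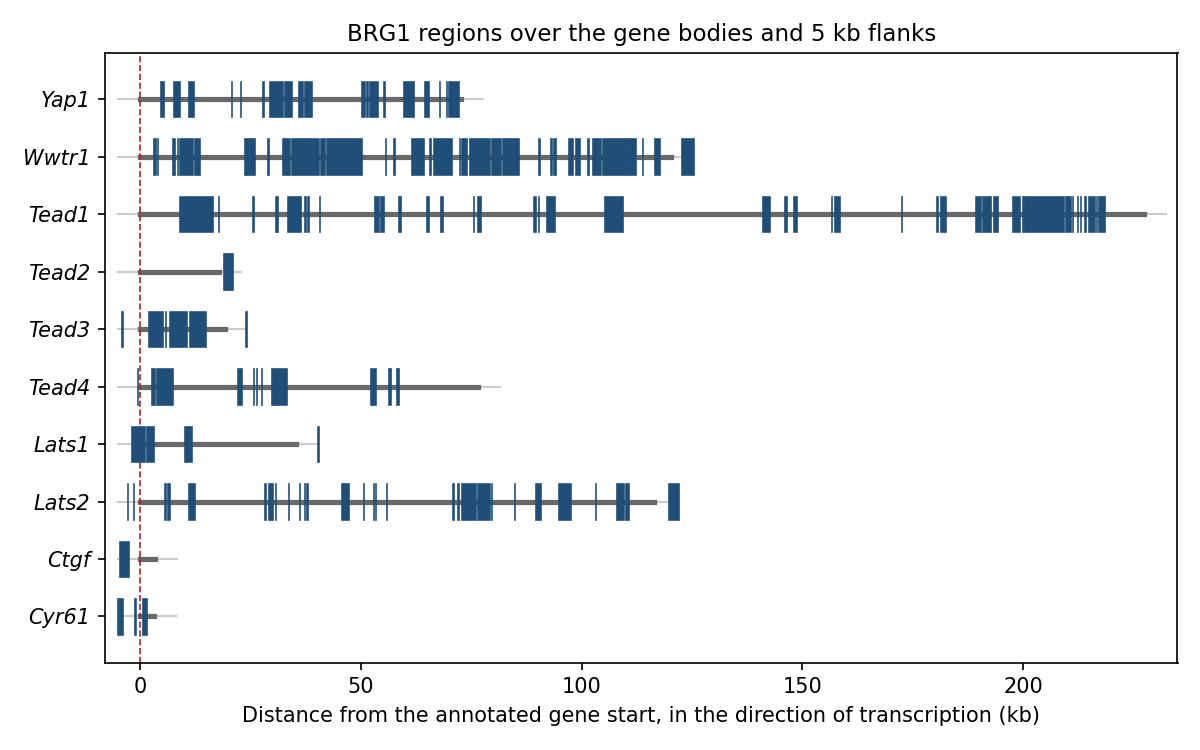
BRG1 regions (blue blocks) over the gene bodies (dark grey lines) and 5 kb flanks (light grey lines) of the 10 genes, by distance in kb from the annotated gene start (dashed line) in the direction of transcription. Long blocks fill much of Wwtr1 and Tead3, while the bodies of Tead2 and Ctgf hold none.

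Yap1 and Wwtr1, which encode the paired co-activators YAP and TAZ, both ranked above the median of genes of like length over the gene body and flanks. Yap1 fell below it, to a percentile of 36, when genes were matched on GC content as well. Within 5 kb of the start both ranked low, at percentiles of 21 for Yap1 and 27.8 for Wwtr1. Wwtr1, on the minus strand of chromosome 3 from 57259571 to 57379832, carried 35 regions, and 34 of these touched the gene body. They covered 49.9% of the window, and none of the 200 genes nearest in length, which span 115255 to 125276 bp, reached that share: the highest of them had 47.7%. The cover of Wwtr1 was intronic, with 30 regions wholly in introns. Regions covered 52.9% of intron bases and 22.6% of exon bases. Of its regions, 8 were at least 3000 bp long, and the longest, of 8250 bp, lay 42.0 to 50.3 kb downstream of the start. By number alone Wwtr1 stood less high, with 0.269 regions per kb and a percentile of 79.5.

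Yap1, on the minus strand of chromosome 9 from 7931999 to 8004596, had 19 regions, all in the gene body. They covered 27.7% of the window, with a percentile of 56.5. Its cover increased along the gene: when the gene body was divided into 3 parts of equal length, regions covered 18.5% of the 5′ part, 33.1% of the middle part and 43.1% of the 3′ part. Means over protein-coding genes were 26.4%, 26.5% and 26.4% for the same parts. A region of 2580 bp, from 7932330 to 7934909, reached into coding exon bases near the 3′ end but not to the annotated gene end. Regions covered 43.0% of the exon bases of Yap1, more than of its introns (29.9%). Among the 10 genes this order was found at Yap1 only. Exon bases here are those of all annotated transcripts of a gene, and at Yap1 these include non-coding transcripts. Yap1, Wwtr1, Tead1 and Tead2 had no region base in the 5 kb upstream of the start, as had 23.7% of protein-coding genes.

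The 4 TEAD genes, which encode DNA-binding partners of YAP and TAZ with closely related functions, differed widely from each other. Tead3, on the minus strand of chromosome 17 from 28468616 to 28487750, ranked highest of them. Its 6 regions covered 43.5% of the window, a percentile of 87.5. The 3 long regions, of 3570, 4230 and 3840 bp, lay between 1.67 and 14.8 kb downstream of the start, and those of 4230 and 3840 bp filled 94.3% of the middle part of the gene. Its introns were covered to 74.8% and its exons to 20.1%. The region upstream of Tead3, from 28491720 to 28492139, lay inside the neighbouring gene Tulp1.

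At the other end of the range, Tead2, on the plus strand of chromosome 7 from 52471123 to 52489005, carried no region between its start and its end. A region in the gene body was found at 68.4% of all genes, at 84.1% of protein-coding genes and at 8 of the 10 genes described here. Ctgf was the other exception. These shares are over genes of all lengths. Among genes of like length, the percentile of the gene body alone was 1.25 for Tead2 and 19.8 for the much shorter Ctgf. The 2 regions in the downstream flank of Tead2, of 540 and 1440 bp, lay wholly inside Cd37, a gene of leucocytes that ends next to it on the opposite strand. The nearest region to the Tead2 start was 7.06 kb upstream. The percentile of its covered share was 7.

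Tead4, on the minus strand of chromosome 6 from 128174306 to 128250841, also ranked low, at a percentile of 6.5, with 13 regions covering 15.6% of its window. These regions fell into clusters. The longest stretch of the window without a region, of 22.9 kb, lay at its 3′ end and included the 5 kb downstream flank. Near the start, 3 regions between 2.34 and 7.35 kb downstream, in introns, stood beside a region of 270 bp upstream, at -0.778 to -0.509 kb. Within 5 kb of the start the covered share of Tead4 was 26.0%, with a percentile of 53.5.

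Tead1 spans 227488 bp, more than any other of these genes, on the plus strand of chromosome 7 from 119822832 to 120050319. It had 42 regions, all in the gene body. They covered 23.1% of its window, with a percentile of 24.5. The cover was uneven, at 23.5% of the 5′ part, 15.1% of the middle part and 33.7% of the 3′ part, and the longest stretch without a region measured 31.4 kb. A region of 7740 bp lay 8.81 to 16.5 kb downstream of the gene start and contained the start of an alternative protein-coding transcript, 12.4 kb downstream. Another long region, of 7470 bp, lay 202 to 209 kb downstream, in an intron near the 3′ end.

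**Figure D2:**
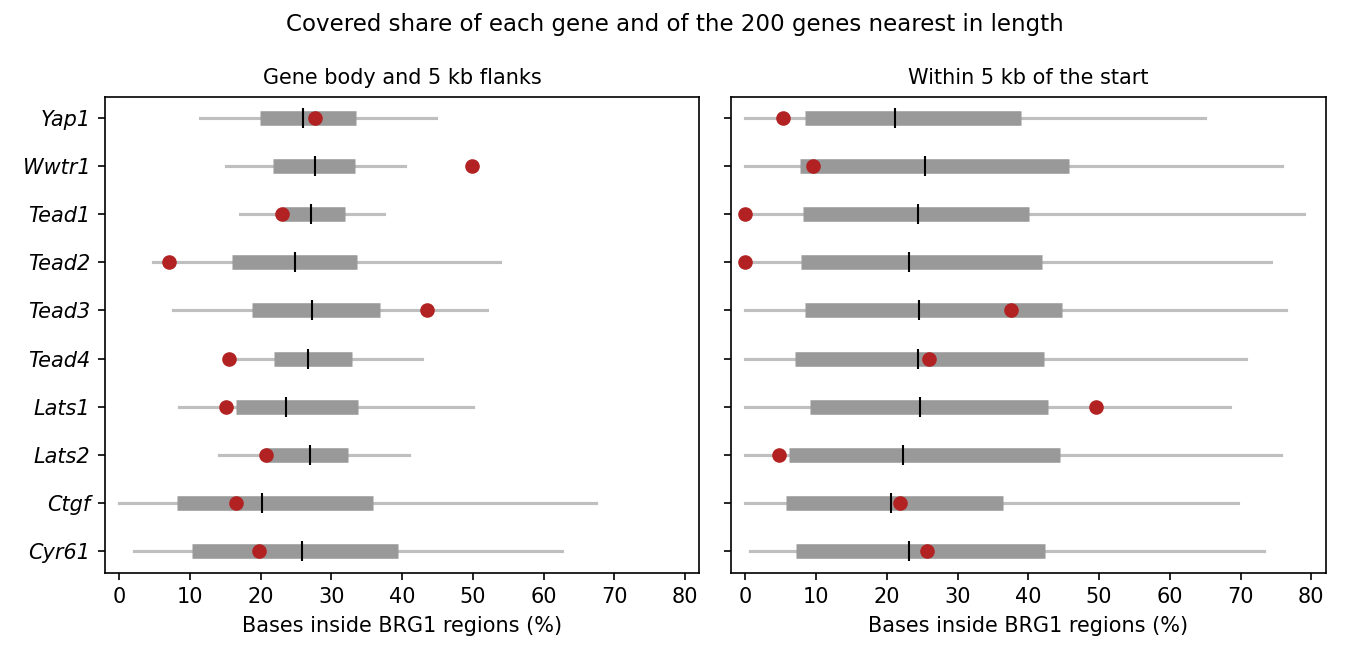
Percentage of bases inside BRG1 regions (horizontal axis) at each gene (red points) over the gene body and 5 kb flanks (left) and within 5 kb of the start (right). Grey boxes, ticks and thin lines give the quartiles, the median and the 5th to 95th percentile of the 200 genes nearest in length, which is spread between genes and not an error. Wwtr1, at 49.9%, lies outside its range on the left.

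A region lay over the annotated start of 1 of the 10 genes, Lats1. The same held for 24.7% of all genes and 24.2% of protein-coding genes. Regions covered 25.8% of the bases of the autosomes, X and Y, so gene starts lay in regions no more often than other bases. Of the 10 genes, 8 had at least 1 region within 5 kb of the start, against 89.9% of all genes and 90.5% of protein-coding genes. The exceptions were Tead1 and Tead2, whose nearest regions lay 6.01 and 7.06 kb upstream. The covered share of this window had a median of 15.7%, against 21.5% over all genes, with a median percentile of 39.6. With windows of 1 kb on each side of the start, 3 genes (Tead4, Lats1 and Cyr61) had a region, against 54.3% of all genes, and with 2 kb these were 5 genes, against 69.6%. With 10 kb on each side all 10 genes had one, against 98% of all genes. The GC content of the 1 kb around the start ran from 49.5% at Lats2 to 72.7% at Tead1, with a median of 62.8% against 54.7% over protein-coding genes. Of the 14944 protein-coding genes within that range of GC content, 23.0% had a region over the start.

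**Figure D3:**
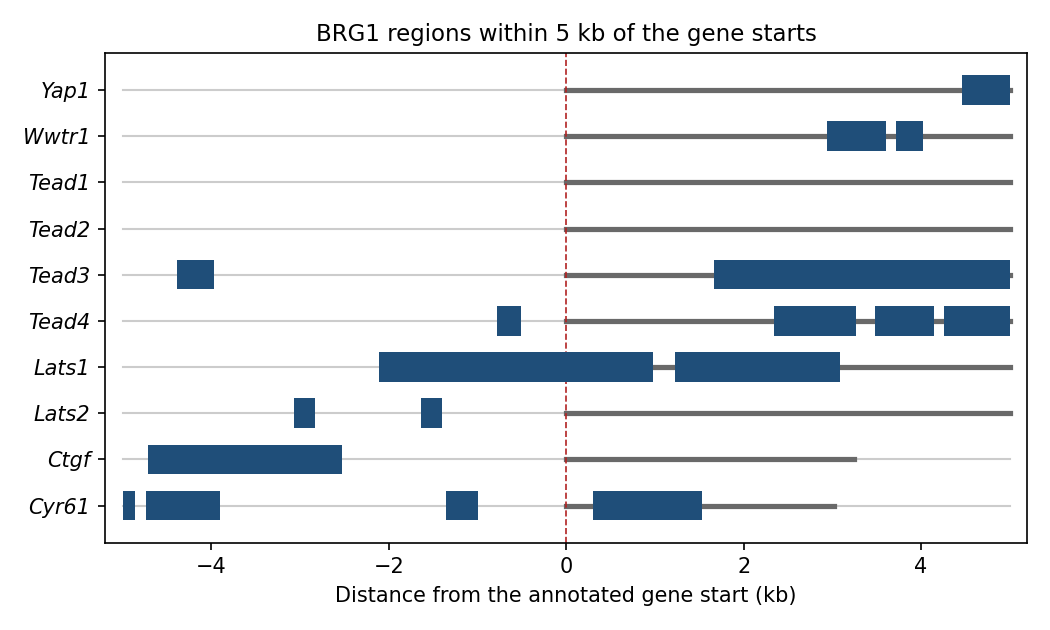
BRG1 regions (blue blocks) within 5 kb of the annotated start (dashed line) of each gene, by distance in kb in the direction of transcription. The dark grey line is the gene body, and Lats1 is the gene whose start lies inside a region.

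Lats1 and Lats2, which encode the kinases that phosphorylate YAP and TAZ, both ranked low over the gene body and its flanks, at percentiles of 21.5 and 25.5, and both had a region over the start of a protein-coding transcript. Lats1 lies on the plus strand of chromosome 10 from 7401007 to 7436256, and 4 regions covered 15.2% of its window. The region over its start was 3090 bp long, from 7398900 to 7401989, and reached from -2.11 to 0.982 kb relative to the start. The protein-coding gene Pcmt1, which is transcribed in the opposite direction, starts at -73 bp, and the same region lay over both starts, so that the promoters of both genes cannot be told apart here. A further region of 1860 bp followed 1.22 to 3.08 kb downstream. Regions thus covered 49.5% of the bases within 5 kb of the Lats1 start, the highest share of the 10 genes at their annotated starts, with a percentile of 83.5. A region of 1770 bp also lay over the start of a shorter Lats1 transcript, 10.0 kb downstream. Over that shorter transcript and its flanks alone, which is the first-numbered protein-coding model, 1 region covered 5.47% of the bases, with a percentile of 5.5. Around the start of that transcript, with 5 kb on each side, regions covered 17.7% of the bases, with a percentile of 42.5, less than the 37.5% at Tead3. Beyond the region of 1770 bp the rest of Lats1 held no region: regions covered 39.0% of its 5′ part, 0.281% of the middle part and 0% of the 3′ part, and a stretch of 28.3 kb held no region.

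The Lats2 record runs from 58260914 to 58377225 on the minus strand of chromosome 14 and is extended at both ends by alternative transcripts, so that its annotated start and end are not those of the main model. No region lay over the annotated start, and regions covered 4.80% of the bases within 5 kb of it. The main protein-coding model starts 12.3 kb downstream of that base, at 58364960, inside a region of 1560 bp from 58364850 to 58366409. This region contained 5 of the 9 distinct transcript starts of Lats2, and regions covered 15.6% of the bases within 5 kb of the main start. At the other end the record overlaps the gene Xpo4, which holds 5 of the 30 regions counted for Lats2. Over the main model alone and its flanks, 17 regions covered 13.9% of the bases, with a percentile of 10, whereas the whole record had 20.7%. The regions of Lats2 were short, with a median of 345 bp.

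When the starts of all annotated transcripts were considered, 10 of the 56 distinct starts of these genes lay inside a region: 5 at Lats2, 2 at Lats1 and 1 each at Yap1, Tead1 and Tead3. By gene this was 5 of 10, against 32.8% of all genes and 37.3% of protein-coding genes. These shares were not matched for the number of starts, and a gene with more starts is more easily counted. The starts at Yap1 and Tead3 were those of non-coding transcripts inside the gene. The number of distinct starts ran from 1 at Cyr61 to 12 at Tead2. With the start of the first-numbered protein-coding transcript alone, 2 of the 10 genes, Lats1 and Lats2, had a region over it, against 24.3% of protein-coding genes.

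Ctgf and Cyr61, compact genes of 3242 and 3015 bp, had 16.5% and 19.7% of their windows covered, with percentiles of 41 and 42. These depended on the flank: with 2 kb on each side the percentiles were 10 for Ctgf and 54 for Cyr61, and over the gene body alone 19.8 and 70. The arrangement of the regions differed. Ctgf, on the plus strand of chromosome 10 from 24315248 to 24318489, had a single region of 2190 bp, from 24310530 to 24312719. It lay upstream, at -4.72 to -2.53 kb, inside the antisense lincRNA gene Gm15270, and no base of the Ctgf body was covered. Cyr61, on the minus strand of chromosome 3 from 145309935 to 145312949, had 4 regions. One of 1230 bp, from 145311420 to 145312649, began 300 bp downstream of the start, ended 1.53 kb downstream and touched coding exon bases, and 3 lay upstream, between -5.22 and -0.991 kb. The nearest of these, of 360 bp, lay inside the lincRNA gene Gm17501, which is transcribed in the opposite direction from -327 bp. Regions covered 70.1% of the 5′ part of the Cyr61 body, 52.2% of the middle part and 0% of the 3′ part.

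**Figure D4:**
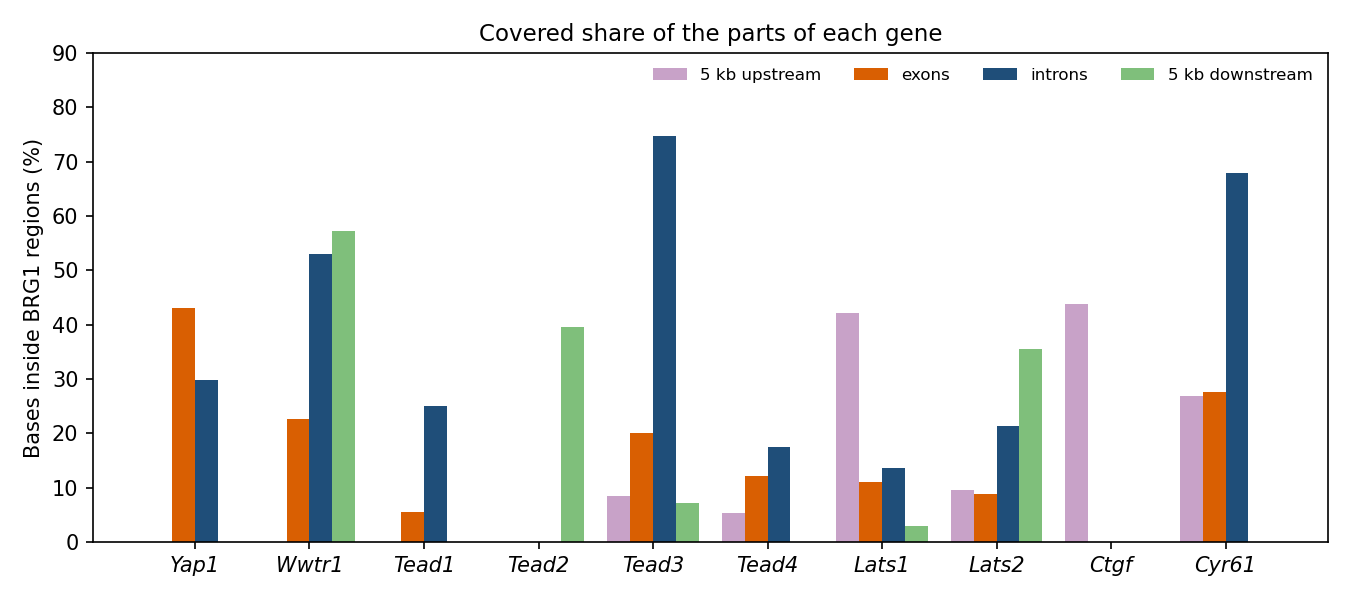
Percentage of bases inside BRG1 regions (vertical axis) in the 5 kb upstream, the exons, the introns and the 5 kb downstream of each gene. Bars are values of 1 list and have no error. Intron cover is highest at Tead3 (74.8%) and Cyr61 (68.0%), and Ctgf is covered in its upstream flank alone.

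Because TEAD factors bring YAP and TAZ to DNA, matches of the TEAD core motif GGAATG, searched on both strands (CATTCC on the other), were located at these promoters. In the 500 bases upstream of the start, 6 of the 10 genes (Yap1, Wwtr1, Tead1, Tead3, Ctgf and Cyr61) had a match, against 22.9% of protein-coding genes. Ctgf had 3 matches there. They are printed here in stretches of 30 bases, in the direction of the gene and with the motif in capitals, because this promoter is the classical TEAD-bound one of the group. In mm9 the sequences lie on the plus strand at chr10:24315205-24315234, chr10:24315196-24315225 and chr10:24315131-24315160, and the motifs begin at -31, -40 and -105 bases from the start. None of the 3 was inside a region, the nearest of which ended at -2.53 kb.
Ctgf, nearest match: ggaggaatgtgaGGAATGtccctgtttgtg
Ctgf, middle match: ggaaggtggggaGGAATGtgaggaatgtcc
Ctgf, farthest match: ttttcagacggaGGAATGtggagtgtcaag

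At Cyr61 the 500 bases upstream held 1 match, on the strand opposite to the gene at -103 to -98 bases from the start, which was likewise outside the regions. Inside the region that covers the 5′ part of the gene, the 2 matches nearest to the start lay 714 bases downstream, in a coding exon, and 901 bases downstream, in an intron. Of the 9 matches within 5 kb of the Cyr61 start, 5 were inside regions. The sequences, shown in the direction of the gene to set the uncovered promoter match beside the covered ones, lie on the minus strand of mm9 at chr3:145313035-145313064, chr3:145312218-145312247 and chr3:145312031-145312060. Capitals again mark the motif or its reverse.
Cyr61, promoter match: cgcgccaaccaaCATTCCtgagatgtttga
Cyr61, covered match in an exon: caccaaggggttGGAATGcaatttcggcgc
Cyr61, covered match in an intron: tttcagcagtctGGAATGcaattcagagtg

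Within 5 kb of the starts of the 10 genes, 7 of 68 TEAD motif matches (10.3%) were inside regions, against 25.9% over all genes. By gene, 2 of the 10 had such a match, against 60.5% of all genes and of protein-coding genes. These were Cyr61 and Tead4, the latter with 2 of 11 matches. Both lay in the intronic region of 3090 bp, 4488 and 4677 bases downstream of the start, on the minus strand at chr6:128246336-128246365 and chr6:128246147-128246176. They are printed because they are the other covered matches, with the motif in capitals.
Tead4, nearer match: tcttcctggctgCATTCCaacctggctgtc
Tead4, farther match: aaggcaggtggtGGAATGttctagcagact

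Over all regions at the 10 genes, the TEAD motif had 0.455 matches per kb, against 0.594 per kb in all regions of the list and 0.593 per kb in the sequenced genome. The AP-1 motif TGANTCA had 0.321 matches per kb at these genes and 0.328 per kb in all regions, and the C/EBP motif TTGCNNAA had 0.450 and 0.506 per kb. No gene had an AP-1 match in the 500 bases upstream of its start, where 12.1% of protein-coding genes had one. For C/EBP the only gene with such a match was Lats2, against 19.0% of protein-coding genes. A match is a description of the letters in a window and not a site of binding.

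A further 44 genes of the pathway were described in the same way, in groups by function, and all were found in the annotation. Their median covered share was 25.6% of the gene body and flanks, with a median percentile of 46.5, and 20 of the 44 ranked above the percentile of 50. A region lay over the annotated start of 12 of them, against 24.7% of all genes. By group these were 7 of the 17 target genes (Ankrd1, Axl, Crim1, Fjx1, Ccdc80, Nuak2 and Tgfb2), 4 of the 13 upstream regulators (Wwc2, Taok1, Wtip and Map4k4) and 1 of the 6 genes of the core kinase cassette (Nf2). None of the 4 junction proteins and none of the 4 TEAD cofactors had one.

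The 3 pathway genes that ranked highest were F3, Wwc1 and Ankrd1. F3, which encodes tissue factor, the initiator of blood coagulation, had 64.4% of its window covered, with a percentile of 97.5. Its nearest region lay 16 bp upstream of the start, and 6 regions covered 79.0% of the bases within 5 kb of it, with a percentile of 98. Wwc1, which encodes the scaffold protein KIBRA, had 39.3% covered and a percentile of 94. Ankrd1, a cardiac ankyrin repeat gene and target of YAP, had 49.0% covered and a percentile of 88.5, and regions filled 86.4% of the bases within 5 kb of its start, with a percentile of 99, against 25.7% at Cyr61 and 21.9% at Ctgf. The 3 that ranked lowest were Amot, Tgfb2 and Crim1. Amot, which encodes angiomotin, a junction protein that binds YAP, had 5.19% covered and a percentile of 0.5. Tgfb2, a ligand gene of the TGF-β family, had 9.83% covered and a percentile of 1, with a region over its start. Crim1, which encodes a membrane protein that binds growth factors, had 15.0% covered and a percentile of 4.5.

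**Figure D5:**
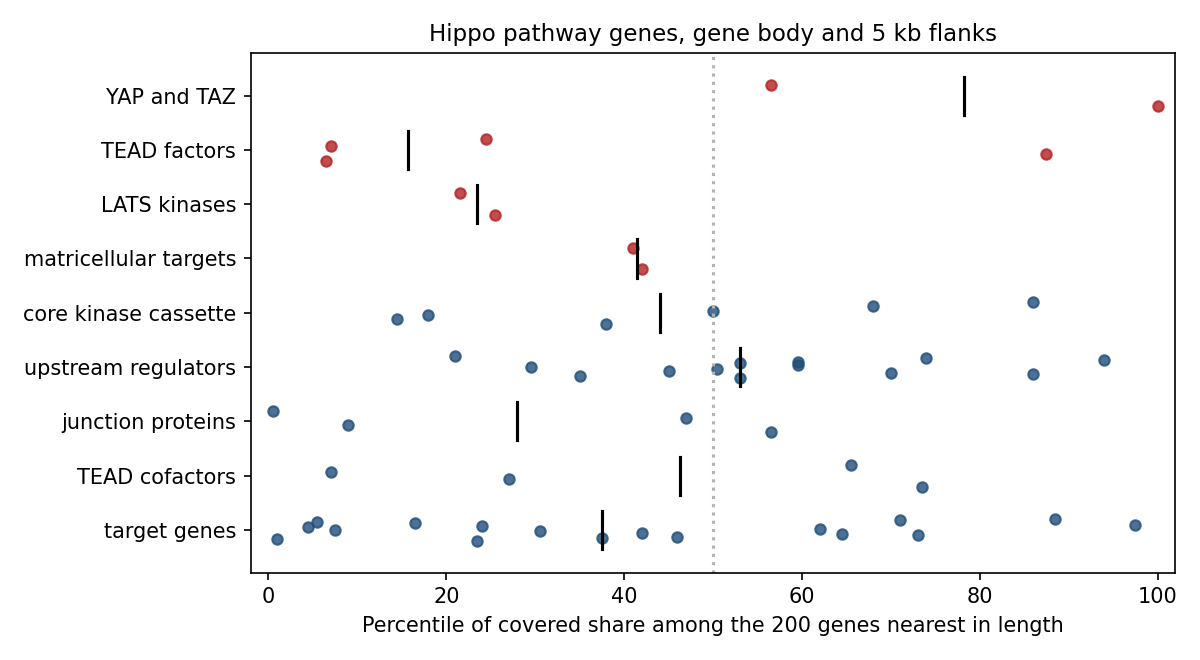
Percentile of the covered share of the gene body and 5 kb flanks among the 200 genes nearest in length (horizontal axis) for the 10 genes (red points) and the 44 further pathway genes (blue points), by group. Black bars are medians, and the target genes of the blue list spread from 1 to 97.5.

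The end of none of the 10 genes lay inside a region, whereas 26.5% of all genes and 27.2% of protein-coding genes had a region over their end. Pooled over the 10 genes, regions covered 15.8% of exon bases and 29.3% of intron bases, where protein-coding genes as a whole had 26.6% and 27.5%. With 1 list and 10 genes of unequal length, the long introns of Tead1 and Wwtr1 hold most of the pooled intron bases. Without Wwtr1 the other 9 genes had 24.0% of intron bases covered, below the value of protein-coding genes, and without Yap1 10.5% of exon bases were covered. The GC content was 41.4% in the regions of the list and 41.8% in the sequenced genome. The median GC content of the window was 45.7% at the 10 genes and 43.8% over all genes.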

How the data were processed

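BRG1 ChIP-seq libraries were made by the authors from PBS-primed and Tβ4-primed, injured hearts, with inputs. According to the methods and the submitters' processing notes, reads were mapped with Bowtie 1.0.0 to mm9 and regions were called with MACS2 2.0.10. The methods name the bdgcomp function, whereas the deposited list is named like an output of the comparison of conditions in MACS2, so the exact call is not known. The deposited values are starts and ends in bp. How the duplicates were combined is not given in the sources used here. The genome and the GENCODE annotation were of the same build (NCBIM37), and positions are counted from 1.

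Regions were counted and covered bases summed with Python 3.11.15 and numpy 2.4.6 over the gene body with 5 kb flanks and over 5 kb on each side of the annotated start. Each gene was ranked, with ties at their middle rank, among the 200 other genes nearest in length. Counting was tested on simulated regions, where it equalled bedtools 2.31.1 at 37273 of 37273 genes. The 10 genes, the pathway list and the rules were chosen with earlier results of these data known. All 10 genes are named, and of the pathway list the 3 highest and 3 lowest percentiles and the genes with a region over the start. Printed sequences are, by rule, at most 2 covered TEAD matches per gene within 5 kb of the start and the promoter matches of Ctgf and Cyr61. The alternatives joined regions, dropped short or very long ones, changed windows, starts, gene models, overlap or comparison genes, or left out unsequenced bases.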

Additional observations from a re-analysis of the deposited data

How the results depend on the processing

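The median percentile of covered share over the gene body and flanks stayed between 29 and 36.3 over all alternatives run. Around the start, with 1 kb on each side the median percentile was 23.9 and 3 genes had a region, and with 2 kb these were 25.6 and 5 genes, against 54.3% and 69.6% of all genes with a region. At 1 kb that median is the middle rank of genes tied without any cover, so it adds nothing to the count. The count of genes with a region over the start rose from 1 to 2 with the start of the first-numbered protein-coding transcript and to 5 with any transcript start. Matching on GC content as well as length, chosen after seeing the data, moved the median percentile of the number of regions per kb from 31.3 to 22. Of the other comparisons of these summaries with an alternative, 42 stayed within the 95% exact binomial interval of a rank among 200 genes or, for counts, within 1.5 times. For single genes, 51 values moved further than that interval and 189 did not. Wwtr1 kept a percentile of 98 to 100 over its gene body and flanks, while the percentile of Lats1 around the start ran from 42.5, with the start of its first-numbered protein-coding transcript, to 98. The alternatives with other gene models and GC content were chosen after seeing the data. A stricter threshold could not be tried, since no score is listed. No paired analysis was possible because the list does not separate replicates, and for the same reason no replicate could be left out. The depth is unknown, so absence of a region does not show absence of BRG1.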
